A study of Mus musculus with 12 samples.

Results

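Transcript levels of 10 autophagy genes were followed in mouse kidneys after ischemia-reperfusion injury, with and without prior exposure of the animals to low oxygen. The genes were taken by symbol from a pathway list: Sqstm1, Map1lc3a, Map1lc3b, Gabarapl1, Ulk1, Becn1, Atg5, Atg7, Wipi1 and Tfeb. Each symbol had 1 row among the 25553 genes of the table. All 10 had an FPKM (fragments scaled by gene length and library depth) above 1 in every library, so none entered through 1 group alone, and they are among the 12357 genes that were tested.

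Autophagy is the process by which a cell encloses its own proteins and organelles in a double membrane, the autophagosome, and delivers them to the lysosome for digestion. A kinase complex built on Ulk1 starts it, a lipid kinase complex containing Becn1 marks the membrane, a pair of ubiquitin-like conjugation systems attaches proteins of the ATG8 family (LC3 and GABARAP) to that membrane, and cargo receptors such as Sqstm1 link the cargo to them. In the kidney the pathway is studied mainly in proximal tubule cells, where its loss is known to aggravate ischemic injury. The values below are transcript levels; passage of cargo through the pathway was not measured here.

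The tissue was whole kidney of wild-type mice, 1 library per mouse, with 3 mice in each of 4 groups. Preconditioned RIRI (renal ischemia-reperfusion injury) mice breathed 8% oxygen in a chamber for 2 h, 4 h and 8 h on days 1, 2 and 3 and then had both renal pedicles clamped for 45 min, with 12 h of reperfusion. Normoxic RIRI mice had the same clamping without low oxygen. Preconditioned sham mice had the low oxygen and a sham operation, and normoxic sham mice had the sham operation alone. Strain, sex and age are not in the labels, and no transgene or deletion is named for any group.

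The libraries held 32919108 to 35490957 reads, as recovered from the FPKM steps, and between 11301 and 11804 genes reached an FPKM of 1 in each. Kidney markers were present in every library, but their levels moved with injury. The summed FPKM of 8 proximal tubule markers was 2648 to 2976 in preconditioned RIRI, 1635 to 2074 in normoxic RIRI, 4962 to 5059 in preconditioned sham and 5016 to 5290 in normoxic sham kidneys, and 4 tubular injury markers summed to 7664 to 8797, 11433 to 14702, 497 to 620 and 388 to 395 in the same groups. Among the proximal tubule markers, Slc13a1 averaged 486 FPKM in preconditioned RIRI, 136 in normoxic RIRI, 182 in preconditioned sham and 148 in normoxic sham kidneys. Neutrophil markers, 8 genes, summed to 23.6 to 111 in preconditioned RIRI, 132 to 293 in normoxic RIRI, 1.73 to 4.39 in preconditioned sham and 2.26 to 15.1 in normoxic sham kidneys. In such bulk tissue, fewer cells of a type and less RNA per cell cannot be told apart.

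In normoxic sham kidneys the order of mean FPKM, which is scaled by gene length, was Gabarapl1 at 520 ± 25.1, Sqstm1 at 123 ± 2.21, Map1lc3a at 91.6 ± 3.22, Map1lc3b at 67.1 ± 2.25, Becn1 at 37.8 ± 1.01, Atg5 at 16.0 ± 0.904, Wipi1 at 13.7 ± 2.24, Ulk1 at 12.4 ± 1.08, Atg7 at 5.0 ± 0.156 and Tfeb at 3.28 ± 0.520 (SD, n = 3). The libraries of Atg5 and Wipi1 overlapped, as did those of Wipi1 and Ulk1. Gabarapl1 and Sqstm1 exchanged places after injury, as the plot of FPKM by group shows.

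**Figure D1:**
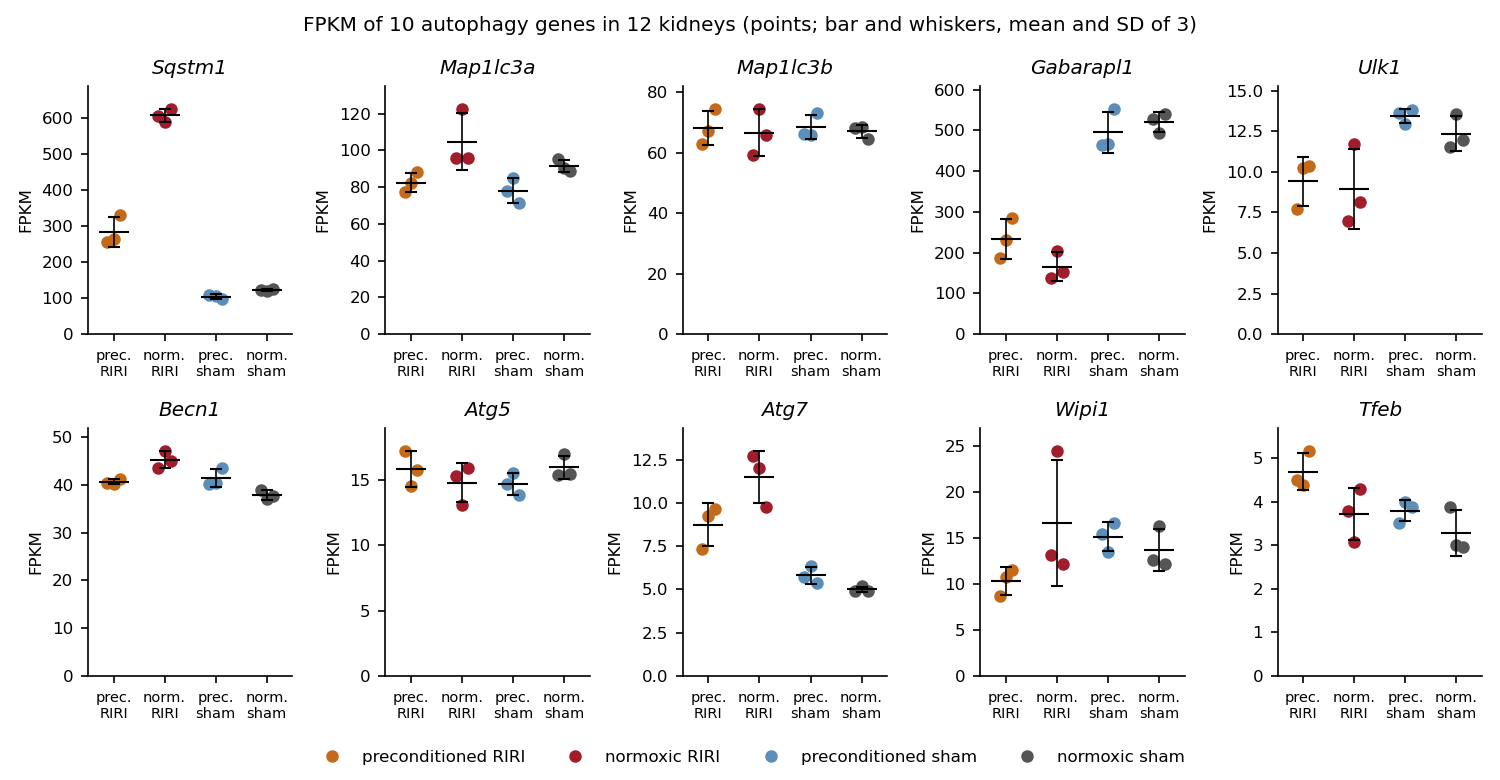
FPKM of the 10 genes in each kidney, with the 4 groups from left to right as preconditioned RIRI, normoxic RIRI, preconditioned sham and normoxic sham; points are mice, the bar is the mean and the whiskers are the SD of 3 mice. Sqstm1 averaged 283 FPKM in preconditioned RIRI and 609 FPKM in normoxic RIRI kidneys, while Gabarapl1 averaged 233 and 165 FPKM, and the sham groups averaged 104 and 123 FPKM for Sqstm1 and 495 and 520 FPKM for Gabarapl1, preconditioned before normoxic.

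Injury in normoxic mice was compared with sham surgery first, to show which of the 10 transcripts moved without prior low oxygen. Sqstm1, Atg7 and Becn1 rose, Gabarapl1 and Ulk1 fell, and Map1lc3a, Map1lc3b, Atg5, Wipi1 and Tfeb did not pass the test (limma, Benjamini-Hochberg adjusted p over all genes tested). The 3 that rose stand against 41.6% of all tested genes called higher, and the 2 that fell against 30.1% called lower. Groups did not overlap for 5 of the 10, against 74.3% of all tested genes, and the median log2 fold change was 0.16 for the 10 genes and 0.10 for all tested genes. With median-ratio rescaling, which brings that all-gene median to -0.002, 2 rose and 3 fell, beside 36% and 36.1% of all tested genes. With quantile normalization 3 rose and 3 fell, beside 36.3% and 34.6%.

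The tubular and neutrophil markers moved along with this comparison. In normoxic RIRI against normoxic sham, 7 of 8 proximal tubule markers fell, 4 of 4 tubular injury markers rose and 7 of 7 tested neutrophil markers rose. Their part in the results on the 10 genes was not tested.

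Sqstm1 encodes p62, a receptor that binds ubiquitinated cargo and LC3 and is itself consumed by autophagy. It had 255, 265 and 330 FPKM in preconditioned RIRI, 608, 591 and 627 FPKM in normoxic RIRI, 109, 107 and 97.4 FPKM in preconditioned sham, and 123, 121 and 125 FPKM in normoxic sham kidneys. The normoxic RIRI libraries were highest, the preconditioned RIRI libraries lay between them and both sham groups, and none of the groups overlapped. Injury raised it in normoxic mice by 2.30 ± 0.09 on the log2 scale of FPKM + 1 (SE; adjusted p = 3.06e-09, limma), which is 4.95-fold in mean FPKM. Injury also raised it in preconditioned mice, by 1.43 ± 0.09 (adjusted p = 4.70e-07, limma), or 2.72-fold.

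Gabarapl1 is an ATG8 family member that is attached to autophagosome membranes. It had 186, 230 and 284 FPKM in preconditioned RIRI, 137, 205 and 153 FPKM in normoxic RIRI, 464, 467 and 554 FPKM in preconditioned sham, and 528, 492 and 541 FPKM in normoxic sham kidneys. Every RIRI library lay below every sham library, while the RIRI groups overlapped each other. The fall with injury was -1.67 ± 0.16 in normoxic mice (SE; adjusted p = 2.17e-06, limma) and -1.10 ± 0.16 in preconditioned mice (adjusted p = 0.000172, limma). In mean FPKM, injured kidneys held 0.317 of the sham level in normoxic mice and 0.472 of it in preconditioned mice.

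Since Sqstm1 and Gabarapl1 moved most and in opposite directions, the 250 bases before their annotated starts are shown, from RefSeq on GRCm38.p6, read 5′ to 3′ on the gene's strand. Capitals mark matches of the GC box GGGCGG, the letters bound by factors of the Sp family, on either strand. The Sqstm1 gene lies at chr11:50200152-50210820 on the minus strand, with its window at chr11:50210821-50211070; the Gabarapl1 gene lies at chr6:129533192-129542331 on the plus strand, with its window at chr6:129532942-129533191.
Sqstm1: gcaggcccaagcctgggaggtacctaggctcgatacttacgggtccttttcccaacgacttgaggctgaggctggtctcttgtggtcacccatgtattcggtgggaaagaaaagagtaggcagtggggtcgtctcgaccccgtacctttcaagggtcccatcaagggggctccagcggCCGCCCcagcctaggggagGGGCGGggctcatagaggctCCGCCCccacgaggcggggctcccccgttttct
Gabarapl1: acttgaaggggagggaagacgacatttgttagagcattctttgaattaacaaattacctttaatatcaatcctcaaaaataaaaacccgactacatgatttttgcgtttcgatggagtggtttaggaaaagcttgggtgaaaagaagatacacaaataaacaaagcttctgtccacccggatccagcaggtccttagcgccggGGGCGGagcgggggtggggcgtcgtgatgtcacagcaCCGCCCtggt
The Sqstm1 window holds 3 GC boxes, 14 CpG and 63.2% G + C, and the Gabarapl1 window holds 2 GC boxes, 12 CpG and 46.8% G + C. The median over all 32851 windows was 52.4% G + C and 6 CpG, and 32.7% of them hold a GC box.

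Of the 10 genes, 8 had a window in the RefSeq table, in 10 windows because Tfeb has 3. Both strands were searched for the E-box CACGTG, the CLEAR core TCACGTGA bound by Tfeb and Tfe3, the antioxidant response element TGACNNNGC, the FoxO motif TGTTTAC and the AP-1 motif TGANTCA. The E-box is contained in the CLEAR core, and an antioxidant response element may overlap an AP-1 motif. An E-box was found in the windows of Atg5, 14 bases before the start, and Atg7, 132 bases before the start, where 6.02% of all windows hold one. The letters of the CLEAR core, the antioxidant response element, the FoxO motif and the AP-1 motif were in none of these windows, against 0.785%, 10.2%, 3.17% and 6.75% of all windows. Both E-boxes precede starts that lie inside the annotated gene and are themselves inside it.

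The LC3 genes differed from Gabarapl1. Map1lc3a had 77.3, 82.2 and 88.0 FPKM in preconditioned RIRI, 95.6, 123 and 96.0 FPKM in normoxic RIRI, 77.9, 84.9 and 71.1 FPKM in preconditioned sham, and 95.2, 90.5 and 89.0 FPKM in normoxic sham kidneys. It was lower in all preconditioned libraries than in all normoxic libraries, within RIRI and within sham kidneys. Its difference between normoxic RIRI and normoxic sham was 0.18 ± 0.10 (SE; adjusted p = 0.126, limma), or 0.065 without normoxic RIRI replicate 2. Map1lc3b, whose lipid-bound protein is the usual marker of autophagosomes, had means of 68.2 ± 5.71, 66.6 ± 7.67, 68.5 ± 4.08 and 67.1 ± 2.25 FPKM in preconditioned RIRI, normoxic RIRI, preconditioned sham and normoxic sham kidneys (SD, n = 3), and all groups overlapped.

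Summed over the 5 ATG8 family genes, that is Map1lc3a, Map1lc3b, Gabarapl1, Gabarap and Gabarapl2, the level was 750 ± 65.5 FPKM in preconditioned RIRI, 652 ± 34.0 in normoxic RIRI, 992 ± 45.9 in preconditioned sham and 1044 ± 24.4 in normoxic sham kidneys (SD, n = 3). Gabarapl1 made up 30.9% ± 4.36, 25.1% ± 4.04, 49.8% ± 2.87 and 49.8% ± 1.37 of that sum in the same order. Without Gabarapl1 the sum was 517 ± 33.6, 487 ± 5.68, 497 ± 12.9 and 524 ± 8.02 FPKM, so the difference between RIRI and sham kidneys in the family's total came mainly from 1 gene. The ratio of Sqstm1 to Gabarapl1 was 1.23 ± 0.121 in preconditioned RIRI, 3.81 ± 0.815 in normoxic RIRI, 0.213 ± 0.0322 in preconditioned sham and 0.237 ± 0.00751 in normoxic sham kidneys. As these genes moved most and in opposite directions, the ratio restates their changes and is no separate result.

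**Figure D2:**
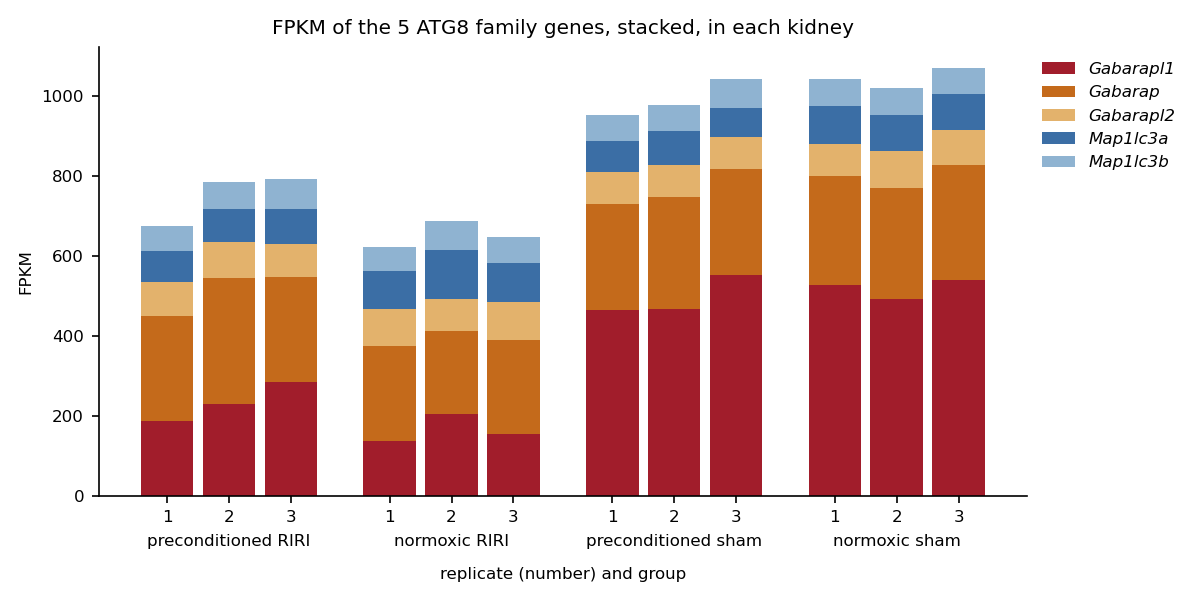
FPKM of the 5 ATG8 family genes stacked for each of the 12 kidneys, grouped from left to right as preconditioned RIRI, normoxic RIRI, preconditioned sham and normoxic sham. The lowest segment, Gabarapl1, averages 233 FPKM in preconditioned RIRI, 165 in normoxic RIRI, 495 in preconditioned sham and 520 in normoxic sham kidneys, while the sum of the other 4 genes averages 487 to 524 FPKM.

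Among the genes that start autophagy, Ulk1, the initiating kinase, had 7.69, 10.3 and 10.3 FPKM in preconditioned RIRI, 6.97, 11.7 and 8.15 FPKM in normoxic RIRI, 13.6, 13.0 and 13.8 FPKM in preconditioned sham, and 11.5, 13.6 and 12.0 FPKM in normoxic sham kidneys. RIRI libraries were the lower ones, but normoxic RIRI replicate 2 lay inside the normoxic sham range. The fall was -0.45 ± 0.15 in normoxic mice (SE; adjusted p = 0.0195, limma) and -0.48 ± 0.15 in preconditioned mice (adjusted p = 0.0203, limma). The first call was lost without normoxic RIRI replicate 1 (adjusted p = 0.0858), normoxic RIRI replicate 3 (0.0616) or normoxic sham replicate 2 (0.0715). The second was lost without preconditioned RIRI replicate 1 (adjusted p = 0.0892), preconditioned sham replicate 1 (0.0526) or preconditioned sham replicate 3 (0.0547), and without a filter on low values (0.0520).

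Becn1, a subunit of the lipid kinase complex, had 40.4, 40.2 and 41.2 FPKM in preconditioned RIRI, 43.6, 47.2 and 44.9 FPKM in normoxic RIRI, 40.2, 40.4 and 43.5 FPKM in preconditioned sham, and 38.9, 36.9 and 37.6 FPKM in normoxic sham kidneys. Normoxic RIRI libraries were highest and normoxic sham libraries lowest, with no overlap. The rise with injury in normoxic mice was 0.25 ± 0.06 (SE; adjusted p = 0.00263, limma), or 1.20-fold in mean FPKM, and with median-ratio rescaling it was 0.13 and did not pass (adjusted p = 0.111). In preconditioned mice the difference was -0.02 ± 0.06 (adjusted p = 0.75, limma).

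The conjugation genes behaved differently from each other. Atg7, the E1-like enzyme that activates both conjugation systems, had 7.32, 9.21 and 9.66 FPKM in preconditioned RIRI, 12.7, 12.0 and 9.79 FPKM in normoxic RIRI, 5.69, 6.37 and 5.38 FPKM in preconditioned sham, and 4.90, 5.18 and 4.92 FPKM in normoxic sham kidneys. Every RIRI library was above every sham library. Injury raised it by 1.05 ± 0.11 in normoxic mice (SE; adjusted p = 4.52e-06, limma), or 2.30-fold in mean FPKM, and by 0.51 ± 0.11 in preconditioned mice (adjusted p = 0.00241, limma), or 1.5-fold. Atg5, which is joined to Atg12 in the complex that attaches LC3, ranged from 13.1 to 17.3 FPKM over all 12 kidneys and passed the test in none of the comparisons, with group means of 15.9 ± 1.37, 14.8 ± 1.47, 14.7 ± 0.832 and 16.0 ± 0.904 FPKM in preconditioned RIRI, normoxic RIRI, preconditioned sham and normoxic sham kidneys (SD, n = 3). Between normoxic RIRI and normoxic sham its difference was -0.11 ± 0.09 (SE; adjusted p = 0.30, limma). With median-ratio rescaling it was -0.23 (adjusted p = 0.0282) and with quantile normalization -0.28 (0.00999), both past the threshold.

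Wipi1, which binds the lipid made by the Becn1 complex, had 8.68, 10.8 and 11.5 FPKM in preconditioned RIRI, 13.2, 24.5 and 12.2 FPKM in normoxic RIRI, 15.4, 13.5 and 16.6 FPKM in preconditioned sham, and 12.7, 16.3 and 12.2 FPKM in normoxic sham kidneys. A single library, normoxic RIRI replicate 2, stood far above the others. The difference between normoxic RIRI and normoxic sham was 0.21 ± 0.21 with it and -0.09 without it (SE; adjusted p = 0.40 and 0.569, limma). Normoxic RIRI replicate 2 was the highest of its group in 6 of the 10 genes and in 41 of 92 other pathway genes, against 25.7% of all tested genes.

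Tfeb, a transcription factor for lysosomal and autophagy genes, had 4.5, 4.39 and 5.17 FPKM in preconditioned RIRI, 3.79, 3.08 and 4.29 FPKM in normoxic RIRI, 3.52, 3.98 and 3.88 FPKM in preconditioned sham, and 3.88, 3.01 and 2.96 FPKM in normoxic sham kidneys. Preconditioned RIRI libraries were the highest and did not overlap normoxic RIRI or preconditioned sham libraries. In the fit of all groups none of its differences passed the test, the nearest being 0.27 ± 0.11 for preconditioned RIRI minus normoxic RIRI (SE; adjusted p = 0.0676, limma), which passed without normoxic RIRI replicate 3 (adjusted p = 0.0335). For preconditioned RIRI minus preconditioned sham it was 0.25 ± 0.11 (adjusted p = 0.0854), which passed in a fit of those groups alone (0.0412).

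Preconditioned RIRI was then compared with normoxic RIRI, which asks how prior low oxygen changed the injured kidney. Sqstm1, Map1lc3a, Atg7 and Wipi1 fell and Gabarapl1 rose. The 1 that rose stands against 24.7% of all tested genes called higher and the 4 that fell against 17.4% called lower; 6 of the 10 did not overlap, against 47.7%. The median log2 fold change was -0.06 for the 10 genes and 0.06 for all tested genes. With median-ratio rescaling 0 rose and 5 fell, beside 20.4% and 21.9% of all tested genes. With quantile normalization 1 rose and 5 fell, beside 19.8% and 21.3%. Over all tested genes, 3053 rose and 2150 fell, or 2526 and 2711 with rescaling.

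Most of these markers moved the other way from the injury comparison, which shares the normoxic RIRI libraries. In preconditioned RIRI against normoxic RIRI, 6 of 8 proximal tubule markers rose, 3 of 4 tubular injury markers fell and 7 of 7 tested neutrophil markers fell. Slc34a1 averaged 747 and 702 FPKM in these groups and Slc5a2 170 and 173. Slc13a1 averaged 486 and 136 FPKM, beside 148 in normoxic sham kidneys. The part of the markers in these results was not tested.

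Sqstm1 was lower in preconditioned RIRI by -1.11 ± 0.09 on the log2 scale (SE; adjusted p = 1.40e-05, limma), 0.466 of the normoxic RIRI level in mean FPKM. That call held under every alternative run. When the RIRI groups were fitted alone, Sqstm1 was the 1 gene of the 10 to pass, against 5 in the fit of all groups.

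The other 4 called differences were smaller. Map1lc3a was lower by -0.33 ± 0.10 (SE; adjusted p = 0.0216, limma), a call lost without preconditioned RIRI replicate 1 (adjusted p = 0.0697), preconditioned RIRI replicate 2 (0.0545) or normoxic RIRI replicate 2 (0.0662, with a difference of -0.22) and in the fit of the RIRI groups (0.0782). Atg7 was lower by -0.36 ± 0.11 (SE; adjusted p = 0.0217, limma), a call lost without preconditioned RIRI replicate 1 (0.0819), normoxic RIRI replicate 1 (0.0688) or normoxic RIRI replicate 2 (0.0628) and in the fit of the RIRI groups (0.0838). Gabarapl1 was higher by 0.50 ± 0.16 (SE; adjusted p = 0.0277, limma), although the groups overlapped. Its call was lost without preconditioned RIRI replicate 2 (adjusted p = 0.0663) or 3 (0.107), without normoxic RIRI replicate 1 (0.0930) or 3 (0.0775), without the filter (0.0729), with rescaling (0.0642) and in the fit of the RIRI groups (0.0920). Wipi1 was lower by -0.58 ± 0.21 (SE; adjusted p = 0.0466, limma), and by -0.28 without normoxic RIRI replicate 2 (adjusted p = 0.144). Its call was also lost in 8 of the other 11 leave-outs of 1 library, with an adjusted p of 0.0559 to 0.139, without the filter (0.112) and in the fit of the RIRI groups (0.113).

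Becn1 had -0.15 ± 0.06 (SE; adjusted p = 0.0642, limma), without overlap, and passed without the filter (0.0359), with median-ratio rescaling (0.0203) or quantile normalization (0.0431) and without normoxic RIRI replicate 1 (0.0475).

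**Figure D3:**
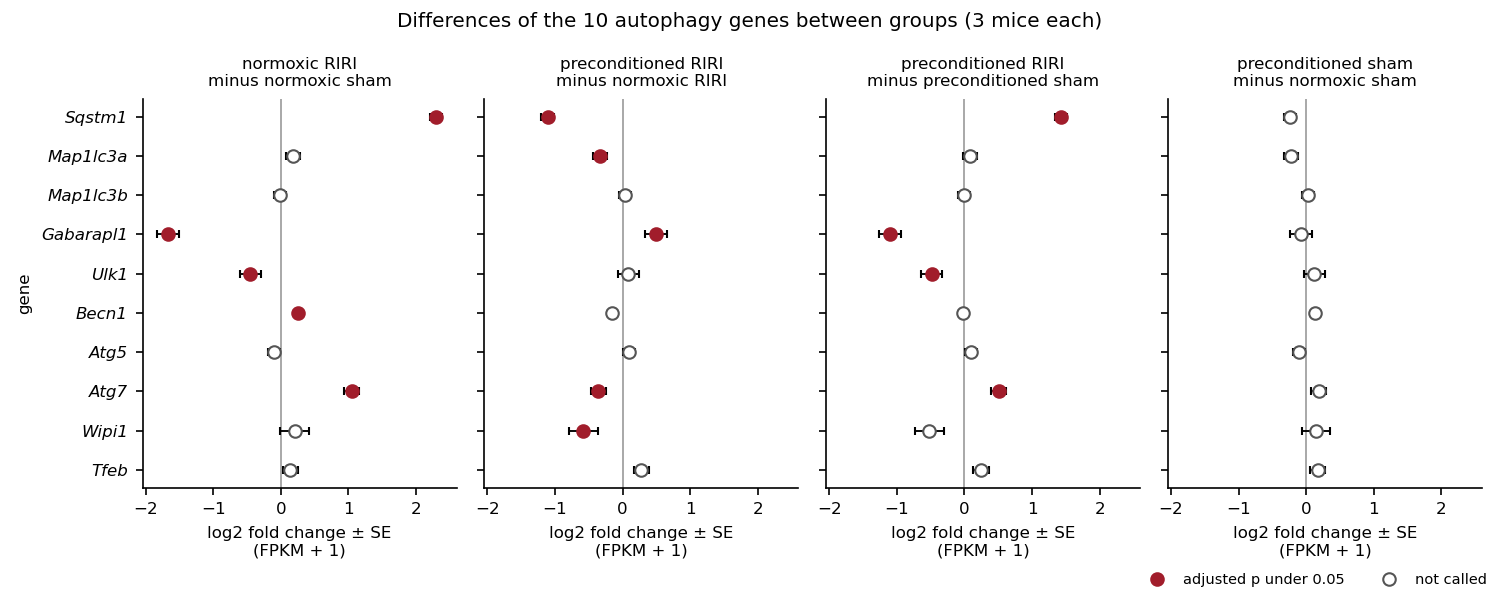
Log2 fold changes of the 10 genes on the scale of FPKM + 1 in 4 comparisons of 3 against 3 mice; whiskers are the SE and filled points have a limma adjusted p under 0.05. Sqstm1 reaches 2.30 in normoxic RIRI minus normoxic sham and 1.43 in preconditioned RIRI minus preconditioned sham, Gabarapl1 reaches -1.67 and -1.10, and no point is filled in preconditioned sham minus normoxic sham.

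Low oxygen by itself was examined in the sham-operated mice. By limma 0 of the 10 genes passed, where 0.421% of all tested genes did; 2 of the 10 had an unadjusted p under 0.05, and voom on recovered reads also called 0. Sqstm1 was lower by -0.24 ± 0.09 (SE; adjusted p = 0.278, limma) and Map1lc3a by -0.23 ± 0.10 (adjusted p = 0.34), both without overlap. The groups of 4 of the 10 did not overlap, against 29.4% of all tested genes, and the median log2 fold change was 0.07 against 0.06 for all tested genes. Summed FPKM of 8 red blood cell markers was 1678 to 2064 in preconditioned sham and 705 to 978 in normoxic sham kidneys, with 0 of 7 tested called, and its part was not tested. Of the 92 other pathway genes tested, 0 were called by limma or voom, and 5 had an unadjusted p under 0.05.

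In preconditioned mice, injury raised Sqstm1 and Atg7 and lowered Gabarapl1 and Ulk1. In this comparison 7 of 8 proximal tubule markers fell and 1, Slc13a1, rose. There 4 of 4 tubular injury markers and 6 of 7 tested neutrophil markers rose, and the part of all these markers was not tested. These 2 and 2 genes stand against 33.0% of all tested genes called higher and 19.4% called lower, and 6 of the 10 did not overlap, against 63.3%. With median-ratio rescaling or quantile normalization 2 rose and 3 fell. Of all tested genes, 24.8% rose and 25.4% fell with the first, and 26.1% and 25% with the second. Wipi1 had -0.52 ± 0.21 (SE; adjusted p = 0.0607, limma), with no overlap, and passed without normoxic RIRI replicate 2 (adjusted p = 0.00502) or 3 (0.0461), with median-ratio rescaling (0.0366) or quantile normalization (0.0286) and in a fit of those groups alone (0.00806).

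Whether the response to injury itself differed between preconditioned and normoxic mice was tested as an interaction, the injury effect in preconditioned minus that in normoxic mice. It passed for 3 of the 10 genes, all negative, against 12.6% of all tested genes called lower and 11.3% called higher, where 0 of the 10 were. Of the markers, 6 of 8 of the proximal tubule had a positive interaction, and 3 of 4 of tubular injury and 4 of 7 tested of neutrophils a negative one; their part was not tested. The interaction was -0.87 ± 0.13 for Sqstm1 (SE; adjusted p = 0.00138, limma), a call that held under every alternative run, and the injury effect in preconditioned mice was 62.1% of that in normoxic mice on the log2 scale. For Atg7 it was -0.54 ± 0.16 (adjusted p = 0.0283, limma), at 48.3% of the normoxic effect. That call was lost without preconditioned RIRI replicate 1 (adjusted p = 0.0515), normoxic RIRI replicate 2 (0.0521), preconditioned sham replicate 1 (0.0537) or 2 (0.0660), normoxic sham replicate 1 (0.0608) or 3 (0.0583), and without the filter (0.0640).

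For Becn1 the interaction was -0.28 ± 0.09 (SE; adjusted p = 0.0365, limma). It passed in 2 of 12 leave-outs of 1 library, those of normoxic RIRI replicate 1 and preconditioned RIRI replicate 3, and in the other 10 the adjusted p was 0.0531 to 0.0909. It did not pass with median-ratio rescaling (0.0591) or quantile normalization (0.0793). Gabarapl1 had 0.57 ± 0.23 (adjusted p = 0.0882, limma), which passed without preconditioned RIRI replicate 1 (0.0333) or normoxic RIRI replicate 2 (0.0251). For Ulk1 the interaction was -0.03 ± 0.22 (adjusted p = 0.932).

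**Figure D4:**
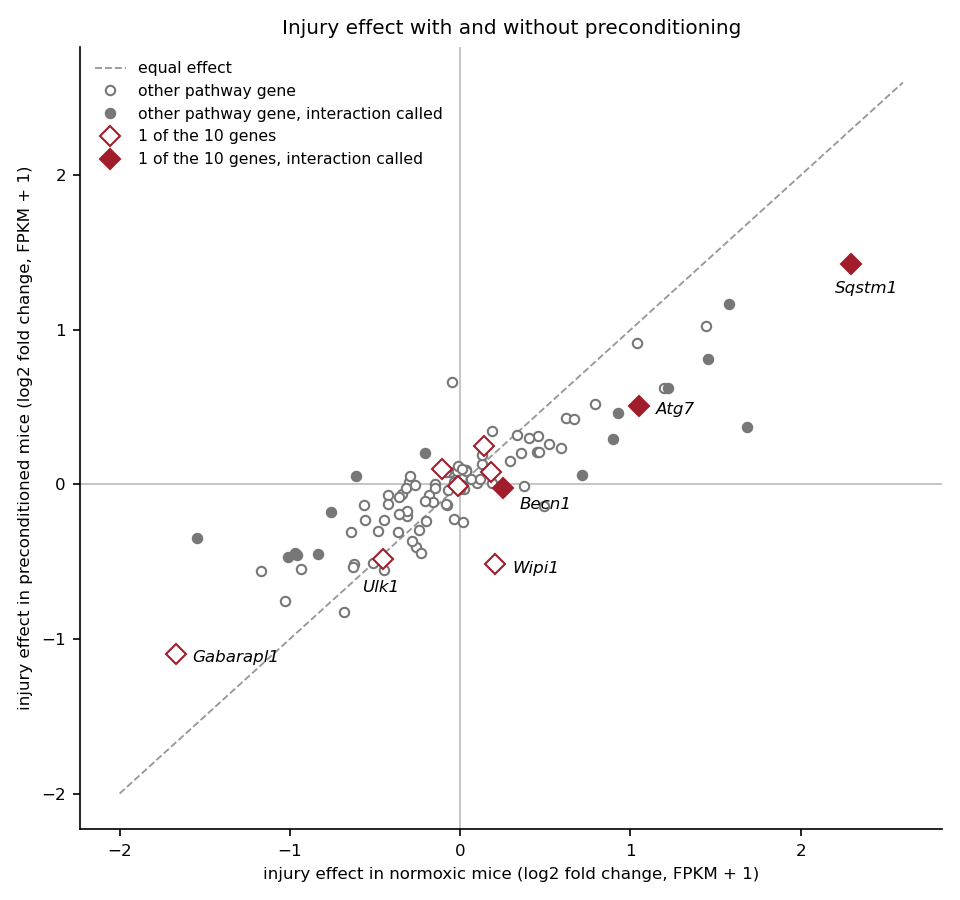
Injury effect in preconditioned mice (vertical axis) against that in normoxic mice (horizontal axis), as log2 fold changes of FPKM + 1, for the 10 genes (diamonds) and 92 other pathway genes (circles); filled symbols have an interaction with a limma adjusted p under 0.05 and the dashed line marks equal effects. Sqstm1 lies at 1.43 against 2.30 and Atg7 at 0.51 against 1.05, both below the line.

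The rest of the pathway was described with 94 further genes in 13 roles, of which 92 passed the filter on low values and were tested. Injury in normoxic mice raised 24 and lowered 33 of them, beside the 41.6% and 30.1% of all tested genes, with a median log2 fold change of -0.07. With median-ratio rescaling 22 rose and 45 fell, beside 36.0% and 36.1% of all tested genes, and with quantile normalization 21 and 45, beside 36.3% and 34.6%. Preconditioned RIRI against normoxic RIRI had 22 higher and 13 lower, beside 24.7% and 17.4% of all tested genes, with a median of 0.09. With median-ratio rescaling 14 were higher and 18 lower, beside 20.4% and 21.9% of all tested genes, and with quantile normalization 18 and 17, beside 19.8% and 21.3%. In a fit of only the RIRI groups, 17 passed rather than 35, beside 3373 rather than 5203 of all 12357 tested genes. Genes below are given with their log2 fold change for normoxic RIRI minus normoxic sham and then for preconditioned RIRI minus normoxic RIRI where each passed, and those comparisons share the normoxic RIRI libraries. The SE of the named genes was 0.05 to 0.16, and their limma adjusted p was at most 0.0185 in the first and 0.0452 in the second comparison. Counts by role below are from the deposited FPKM, and several changed with median-ratio rescaling or quantile normalization.

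Of the 4 tested genes of the Ulk1 complex, 3 fell with injury, among them the scaffold Atg13 at -0.56 and the kinase Ulk2 at -0.36. Of the 7 lipid kinase genes, 2 rose and 2 fell: Rubcn, an inhibitor of the complex, had 0.33, the catalytic subunit Pik3c3 had -0.63, and the regulatory subunit Pik3r4 had -0.27. Membrane supply, 5 genes, had 3 higher and 0 lower, beside 41.6% and 30.1% of all tested genes. With median-ratio rescaling or quantile normalization this role had 2 higher and 1 lower. There the endoplasmic reticulum scramblases moved together: Vmp1 had 66.9 ± 10.8 FPKM in preconditioned RIRI, 113 ± 24.4 in normoxic RIRI, 37.4 ± 2.78 in preconditioned sham and 40.0 ± 2.55 in normoxic sham kidneys (SD, n = 3), with 1.46 for injury and -0.74 for preconditioning, and Tmem41b had 0.59 and -0.45. Of the 9 conjugation genes 2 rose and 2 fell with injury, with the protease Atg4b at 0.40 and the E2-like Atg10 at -0.94. Gabarap, of the ATG8 family, had -0.29 and 0.30.

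Among 6 other cargo receptors, 2 rose and 3 fell with injury. Optn, a ubiquitin-binding receptor like Sqstm1, had 0.90 and -0.39, Tollip had 0.71 and -0.51, and Wdfy3, a scaffold for protein aggregates, had -0.64 and 0.52. Of the 6 tested mitophagy genes, 5 fell with injury and 0 rose, and 3 were higher in preconditioned RIRI. Of all tested genes, 30.1% were called lower with injury in normoxic mice and 24.7% higher in preconditioned than in normoxic RIRI. With median-ratio rescaling 2 of the mitophagy genes were higher in preconditioned RIRI, beside 20.4% of all tested genes. Bnip3, a mitochondrial receptor, had 55.0 ± 3.30 FPKM in preconditioned RIRI, 36.6 ± 6.46 in normoxic RIRI, 62.5 ± 6.48 in preconditioned sham and 61.9 ± 0.603 in normoxic sham kidneys (SD, n = 3), with -0.76 and 0.59. Pink1, the kinase that marks damaged mitochondria, had -1.03 for injury. Of 5 genes for autophagy of the endoplasmic reticulum, 3 fell and 1 rose with injury, and 2 were higher and 1 lower in preconditioned RIRI. Ccpg1 was at -0.97 and 0.49 and Sec62 at -0.84 and 0.46. With median-ratio rescaling or quantile normalization, 3 of these 5 genes fell and 0 rose with injury.

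The lysosome list was split, with 5 of 16 higher and 6 lower after injury, or 5 and 8 with median-ratio rescaling or quantile normalization. The protease Ctsd had 855 ± 43.2 FPKM in preconditioned RIRI, 1149 ± 36.9 in normoxic RIRI, 380 ± 10.2 in preconditioned sham and 384 ± 10.8 in normoxic sham kidneys (SD, n = 3), with 1.58 and -0.43. Npc1, which exports cholesterol from lysosomes, had 1.69 and -1.17. Of 5 transcription factors, Tfe3, a relative of Tfeb, had 1.22 and -0.45, and Tfec, of the same family, had -1.55 and 1.19. Tfec was at 4.25 ± 0.430 FPKM in preconditioned RIRI, 1.30 ± 0.326 in normoxic RIRI, 5.66 ± 0.405 in preconditioned sham and 5.72 ± 0.721 in normoxic sham kidneys (SD, n = 3). Of 16 regulators in the mTORC1 and AMPK list, 5 rose and 5 fell: the AMPK subunit Prkaa1 had 0.93 and -0.35, the mTORC1 activator Rheb had 0.67 and -0.34, and Rragd, a GTPase that brings mTORC1 to lysosomes, had -0.61 and 0.53.

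Fusion, with 7 genes, had 2 higher and 1 lower after injury. The SNARE Ykt6 had 0.52 and -0.18, the tethering protein Plekhm1 had 0.62 and -0.26, and the SNARE Vamp8 had -0.43 and 0.25. The 4 phosphoinositide effectors had 1 higher, Wdr45b at 0.47, and 1 lower, Zfyve1 at -0.36, while Wipi2 was lower in preconditioned RIRI, at -0.24. The conjugation enzyme Atg3 was higher in preconditioned RIRI, at 0.24, and the mitophagy receptor Fkbp8 had -0.42 and 0.41. The preconditioning calls of Atg13 (0.23), Pik3r4 (0.29), Atg10 (0.39), Atg3, Gabarap, Fkbp8, Wipi2, Ykt6, Plekhm1, Vamp8 and Prkaa1 were lost in a fit of the RIRI groups alone. Median-ratio rescaling also ended those of Atg13, Atg3 and Vamp8, and quantile normalization those of Atg13, Atg3 and Atg10.

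Leaving out 1 library ended the preconditioning calls of Atg13 and Ykt6 in 10 of 12 leave-outs and that of Atg3 in 9, with Atg13 at 0.15 without normoxic RIRI replicate 1 (adjusted p = 0.144, limma) and Atg3 at 0.16 without normoxic RIRI replicate 2 (0.153). With preconditioned RIRI replicate 2 left out, the calls of Gabarap (adjusted p = 0.0529), Plekhm1 (0.113, at -0.17), Vamp8 (0.0852) and Prkaa1 (0.0603) were lost, and the difference of Atg10 was 0.25. Without preconditioned RIRI replicate 3 those of Vamp8 (0.0570) and Prkaa1 (0.0510) were lost, and without preconditioned RIRI replicate 1 that of Wipi2 (0.115). Without normoxic RIRI replicate 2 those of Wipi2 (0.102) and Plekhm1 (0.0637) were lost, and without normoxic RIRI replicate 3 those of Plekhm1 (0.0752), Vamp8 (0.0815) and Prkaa1 (0.0648). The injury call of Zfyve1 was lost when normoxic sham replicate 2 (0.0816) or normoxic RIRI replicate 3 (0.0512) or 1 (0.0567) was left out.

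**Figure D5:**
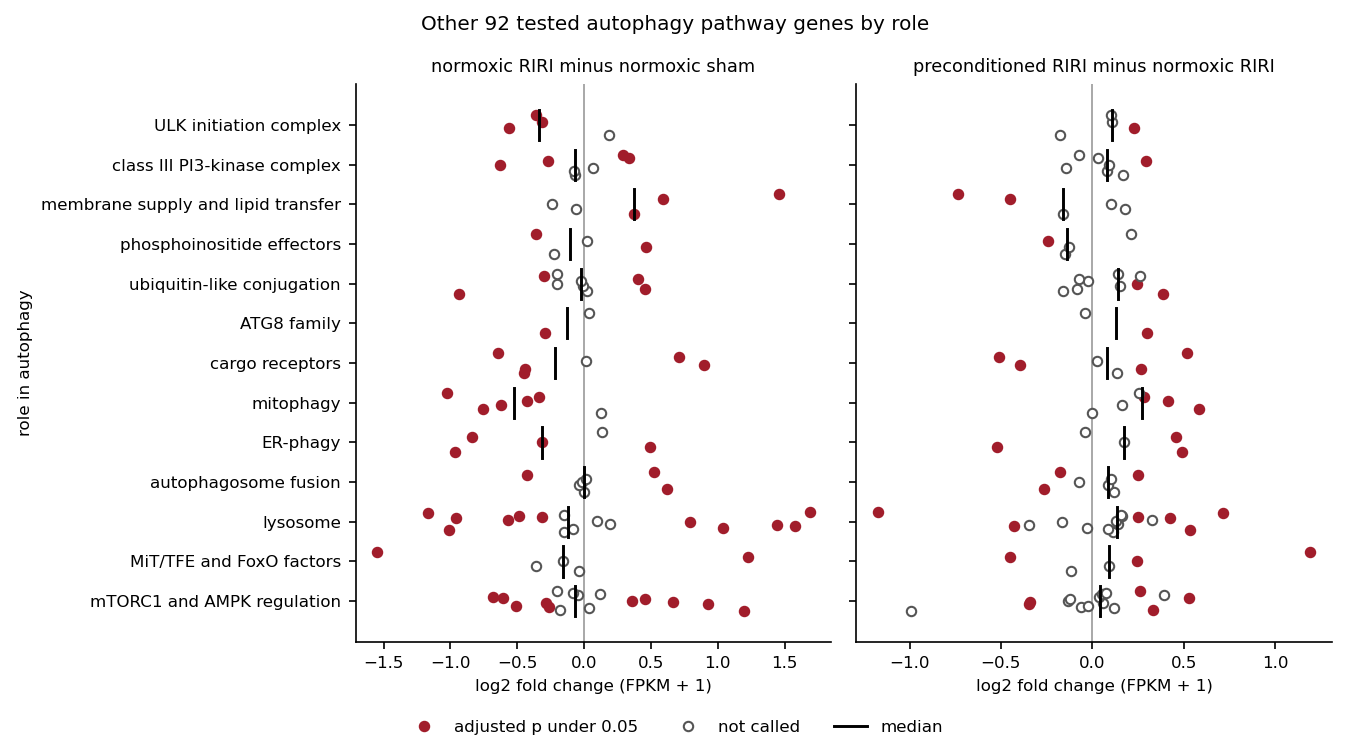
Log2 fold changes of FPKM + 1 of the 92 tested pathway genes, 1 point per gene, in 13 roles, for normoxic RIRI minus normoxic sham (left) and preconditioned RIRI minus normoxic RIRI (right); filled points have a limma adjusted p under 0.05 and the bar is the median of the role. Mitophagy has 5 of 6 genes called lower on the left and 3 called higher on the right, or 2 on the right with median-ratio rescaling. Of all tested genes, 30.1% were called lower in the left comparison and 24.7% higher in the right. Both comparisons share the normoxic RIRI libraries.

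For preconditioned RIRI minus preconditioned sham, 20 of the 92 genes rose and 22 fell, beside 33.0% and 19.4% of all tested genes. With median-ratio rescaling 12 rose and 29 fell, beside 24.8% and 25.4% of all tested genes, and with quantile normalization 14 and 28, beside 3222 and 3085 of the 12357 tested. The interaction passed for 8 in the positive and 7 in the negative direction, beside 11.3% and 12.6% of all tested genes, or 11 and 6 with quantile normalization, beside 11.8% and 11.5%.

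For the genes whose injury change reached 2-fold, the 3 tested genes with the most alike pattern were sought, as the smallest root mean square difference of log2(FPKM + 1) centred on each gene's mean over the 12 libraries, among 11536 candidates. Sqstm1 was nearest to Txnrd1, a thioredoxin reductase, at 0.131, to Sema7a, a membrane-anchored semaphorin, at 0.139, and to Atf4, a transcription factor of the stress response, at 0.153. Txnrd1 averaged 114 ± 17.5 FPKM in preconditioned RIRI, 220 ± 11.8 in normoxic RIRI, 44.9 ± 3.59 in preconditioned sham and 47.8 ± 3.35 in normoxic sham kidneys (SD, n = 3). Gabarapl1 was nearest to Fmo2, a flavin monooxygenase, at 0.129, to Ctsf, a lysosomal protease, at 0.157, and to Sirt3, a mitochondrial deacetylase, at 0.167. Atg7 was nearest to Gipc1, a scaffold protein, at 0.0761, to Ogg1, a DNA repair glycosylase, at 0.0817, and to Get4, part of a membrane protein insertion pathway, at 0.102.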

How the data were processed

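RNA of 12 mouse kidneys, 3 mice per group, was sequenced on a DNBSEQ-T7 from VAHTS Universal V10 libraries of TRIzol-extracted RNA, per the labels' protocols. The authors deposited 1 table of FPKM with a value per gene symbol and library. The mm10 build, HTSeq and DESeq2 are named without roles per the submitters' processing notes; aligner and annotation: not given in the sources used here. Proteomic data of the study were not analysed here.

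Groups came from the labels. FPKM totals were 465148 to 494620 per library. Whole reads were recovered from the FPKM steps for 99.95% of genes (tolerance 1e-05) and served to give depth and for 1 alternative; relative depth was 0.962 to 1.04. No pair of 66 libraries shared an FPKM above 0. FPKM gives no counting intervals, and genes of near-identical sequence may share reads.

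Genes that reached an FPKM of 1 in 3 or more libraries entered limma 3.58.1 (R 4.3.3), fitted to log2(FPKM + 1) as 4 group means with a mean-variance trend, and p was adjusted by Benjamini-Hochberg over all 12357 genes. A gene was called at an adjusted p under 0.05. The pseudocount of 1 understates changes of low genes. The fit was tested on simulated data. Promoter windows and positions came from RefSeq (GRCm38.p6).

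The members and lists were chosen with earlier results of these data known. Named were all 10 genes, per role up to 2 called genes of smallest adjusted p in each of the 2 comparisons that involve normoxic RIRI, and the 3 genes most like each member with a 2-fold injury change; a gene that the rule also takes is not reported here. Alternatives comprised quantile normalization, median-ratio rescaling, a filter raised to FPKM 5 or dropped, a pseudocount of 0.1, a fit without the trend or of only the groups compared, the replicate number as a block, each library left out, and, chosen after seeing the data, limma voom on recovered reads.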

Additional observations from a re-analysis of the deposited data

Results flagged for a closer look

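The injury effect differed between preconditioned and normoxic mice (interaction, limma adjusted p over all tested genes) in 3 of the 10 genes: by -0.87 on the log2 scale for Sqstm1 (adjusted p = 0.00138), -0.28 for Becn1 (0.0365) and -0.54 for Atg7 (0.0283). All 3 were negative, beside 12.6% of all tested genes called lower. Calls of Becn1 and Atg7 were lost under several alternatives.

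Among the other named pathway genes, the interaction was negative for Npc1, a lysosomal cholesterol transporter (-1.31, adjusted p = 0.000866), the cargo receptors Tollip (-0.65, 0.00258) and Optn (-0.60, 0.00305), Tfe3 (-0.60, 0.00555), Ctsd (-0.41, 0.00702), Prkaa1 (-0.46, 0.0348) and Vmp1 (-0.64, 0.0491). It was positive for Tfec (1.20, adjusted p = 0.000866), Ccpg1 (0.52, 0.00306), Rragd (0.66, 0.0106), Sec62 (0.39, 0.0113), Bnip3 (0.58, 0.0236) and Atg3 (0.41, 0.0353). Of these 13 calls, 9 held under every alternative run, and those of Vmp1, Atg3, Prkaa1 and Bnip3 did not. The genes were named for a small adjusted p in comparisons that share the normoxic RIRI libraries with the interaction. That choice favours such calls. Over all 92 tested pathway genes, 8 were called positive and 7 negative, beside 11.3% and 12.6% of all tested genes.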

How the results depend on the processing

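Precision was limited by 3 mice per group. Of 50 results on single genes, 405 of 435 values under alternatives other than leave-outs kept direction and side of the threshold, 13 lost a call, 9 gained one and 8 turned sign; over 600 leave-outs of 1 library the numbers were 532, 41, 6 and 21. The sign turned only in differences that were not called. Sqstm1 calls in 3 comparisons and the interaction, and the injury calls of Gabarapl1 and Atg7, held under every alternative run.

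With only the groups compared, 1 rather than 5 of the 10 genes and 17 rather than 35 pathway genes passed in preconditioned RIRI minus normoxic RIRI. Of all 12357 tested genes, 3373 rather than 5203 passed there. That fit has fewer samples and its own estimate of the spread. Such fits passed 303 rather than 52 of all tested genes in preconditioned sham minus normoxic sham. They passed 6566 rather than 6480 in preconditioned RIRI minus preconditioned sham and 8480 rather than 8859 in normoxic RIRI minus normoxic sham. The cause of these differences was not tested. Without 1 library, calls among the 10 genes were 4 to 5 for normoxic injury, 2 to 5 for preconditioned RIRI minus normoxic RIRI, 3 to 5 for preconditioned injury, 0 for preconditioned sham minus normoxic sham and 1 to 3 for the interaction, and among pathway genes 53 to 59, 21 to 35, 33 to 45, 0 and 11 to 24. Among all tested genes the calls were 8303 to 8930, 3840 to 5476, 5566 to 6927, 23 to 80 and 2064 to 3569 in the same order.

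Signs turned with median-ratio rescaling for Map1lc3a (-0.038) and Atg5 (-0.012) in preconditioned RIRI minus preconditioned sham and for Map1lc3b in preconditioned RIRI minus normoxic RIRI (-0.038) and in preconditioned sham minus normoxic sham (-0.051). They turned with quantile normalization for Map1lc3b in preconditioned RIRI minus normoxic RIRI (-0.017) and the interaction (-0.042), for Ulk1 in the interaction (0.013) and for Atg5 in preconditioned RIRI minus preconditioned sham (-0.041). Leave-outs spanned 0 for Map1lc3b in normoxic injury (-0.099 to 0.065), preconditioned RIRI minus normoxic RIRI (-0.044 to 0.12), preconditioned sham minus normoxic sham (-0.0195 to 0.054), preconditioned injury (-0.071 to 0.046) and the interaction (-0.073 to 0.091), for Map1lc3a in the interaction (-0.17 to 0.016), for Ulk1 in preconditioned RIRI minus normoxic RIRI (-0.059 to 0.28) and the interaction (-0.18 to 0.16), for Becn1 in preconditioned injury (-0.045 to 0.011) and for Wipi1 in normoxic injury (-0.093 to 0.38). The cause was not tested.

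Correlations of deviations from the group means were -0.248 to 0.165 between samples of the same replicate number and -0.157 to 0.336 between the others. No pairing by number was seen, but with 3 mice per group these values cannot exclude one. With the replicate block, 5, 5, 0, 4 and 2 of the 10 genes passed in normoxic injury, preconditioned RIRI minus normoxic RIRI, preconditioned sham minus normoxic sham, preconditioned injury and the interaction, and 59, 32, 0, 42 and 13 pathway genes; the Becn1 interaction then had an adjusted p of 0.0608. Voom on recovered reads, chosen after seeing the data, gave 5, 5, 0, 4 and 3, and 61, 37, 0, 43 and 17. Among all tested genes, 8819, 5057, 35, 6331 and 2700 passed with the replicate block and 8839, 5331, 57, 6465 and 2928 with voom. With the filter at FPKM 5, Tfeb was not tested. The interaction has no fit of only the groups compared.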

Other observations

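Further genes of the lysosome list were picked after their values were seen. The lysosomal cathepsins Ctsb and Ctsl averaged 331 ± 13.4 and 291 ± 21.0 FPKM in preconditioned RIRI, 340 ± 38.9 and 382 ± 125 FPKM in normoxic RIRI, 175 ± 1.66 and 142 ± 6.20 FPKM in preconditioned sham, and 164 ± 4.67 and 135 ± 9.0 FPKM in normoxic sham kidneys (SD, n = 3). Injury in normoxic mice raised Ctsb by 1.04 ± 0.08 (SE; adjusted p = 3.52e-07, limma) and Ctsl by 1.45 ± 0.17 (adjusted p = 9.09e-06). For preconditioned RIRI minus normoxic RIRI they had -0.03 (adjusted p = 0.789) and -0.35 (0.112), or -0.13 (0.128) and -0.09 (0.389) without normoxic RIRI replicate 2, none past the threshold. Atp6v1a, a proton pump subunit in the lysosome list, averaged 95.0 ± 8.25 FPKM in preconditioned RIRI, 65.5 ± 7.12 in normoxic RIRI, 132 ± 9.59 in preconditioned sham and 133 ± 8.35 in normoxic sham kidneys. It fell with injury in normoxic mice (-1.01 ± 0.10, adjusted p = 2.04e-06) and was higher in preconditioned than in normoxic RIRI (0.53 ± 0.10, adjusted p = 0.00137). Of 5 collecting duct markers, 4 fell and 0 rose in the first comparison, and 3 rose and 0 fell in the second. Among them Atp6v1b1 averaged 31.0 FPKM in preconditioned RIRI, 6.89 in normoxic RIRI, 59.1 in preconditioned sham and 46.6 in normoxic sham kidneys. The part of these markers was not tested.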
